A study of Danio rerio with 36 samples.

Results

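Integrins and laminins join cells to the basement membrane, and 4 of their genes were followed in Müller glia (MG) of the zebrafish eye: *itga5* (ENSDARG00000006353), *itgb1a* (ENSDARG00000071863), *lamb2* (ENSDARG00000002084), and *lamb4* (ENSDARG00000039133). They were chosen by identifier as 2 receptor chains and 2 laminin beta chains, out of 31540 genes in the table, and all 4 passed a low-expression filter that kept 19046 genes. Whole eyes of Tg(*GFAP:GFP*) zebrafish, in which a GFAP promoter drives GFP, were dissociated and sorted at 48, 60, 72, 96, 120, and 192hpf into GFP-positive cells (MG) and GFP-negative cells (C). All fish carried the transgene, and the embryos were raised in phenylthiourea against pigmentation. Each fraction at each stage has 3 columns, labelled as replicates, and the eyes of a time point were pooled. No mutants and no wild type fish without the transgene were compared here. C holds all other cells of the eye, so it can hold lens, cornea, sclera, vessels, and pigment epithelium beside retinal neurons and progenitors. Values are counts per gene scaled to the same total of reads on genes in each column (CPM).

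A laminin is a cross-shaped secreted protein of 1 alpha, 1 beta, and 1 gamma chain, and laminin sheets are the scaffold of basement membranes such as the inner limiting membrane, on which the basal endfeet of MG rest. Integrins are receptors of 1 alpha and 1 beta chain. The integrin beta 1 chain pairs with many alpha chains, among them laminin receptors, while integrin alpha 5 with beta 1 is best known in mammals as a receptor of fibronectin.

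The study made guide RNAs against each of the 4 genes for its CRISPR screen. They are shown because they are the sequences that identify what was targeted, written as in the study's own table, 5′ to 3′, with capitals marking the PAM (NGG) where that table includes it. Their positions in the genome were not determined here.
itga5 guide 1: gggcaaggctactgtcaaggTGG
itga5 guide 2: ggacccagcggtagctacttCGG
itgb1a guide 1: ggattctctggctgccgtgcGGG
itgb1a guide 2: ggcaatggctcctttgagtgCGG
lamb2 guide 1: gtttccagtgtgattcacgg
lamb2 guide 2: ggtggcggatgctaagacca
lamb4 guide 1: gattgtggtggtcattgtag
lamb4 guide 2: aaaccagaatgtctccagcg

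Before the values, the libraries themselves need a description. The columns held 1311849 to 8889893 reads on genes, apart from the 60hpf MG columns with 63463 to 90846. The 3 columns of most groups differed by no more than read sampling, so the 36 columns were joined into 14 libraries, 1 for each group except 48hpf MG and 48hpf C, which have 2 each. Replicates 1 and 2 of every group but 48hpf MG were closer than independent read samples would be (median chi-square ratios 0.0704 to 0.243, where 1 is sampling alone). With 1 library per fraction at a stage, a difference there compares libraries and has counting error only. At 48hpf the replicate 3 columns stood apart. The column labelled 48hpf C replicate 3 differed from 48hpf MG replicates 1 and 2 by no more than read sampling (ratios 0.683 and 0.989). The column labelled 48hpf MG replicate 3 likewise matched the 72hpf MG columns (0.865 to 0.946) and not the other 48hpf MG columns (136 and 137). The shallow 60hpf MG columns had ratios of 0.984 to 1.05 with the 96hpf C columns. Replicate 3 of 60hpf MG also had ratios of 1.01 to 1.07 with the 192hpf C columns, and replicate 2 had 1.08 with 192hpf C replicate 3. At that depth the ratio does not single out 1 group, and this was not examined further. Most results that use 48hpf are therefore given with and without both 48hpf replicate 3 columns, or from replicates 1 and 2 only. The glial labels were checked on 16 identifiers of Müller glia markers. Their summed level was higher in MG from 60hpf on, for example 27529 to 28180 CPM in MG and 3261 to 3265 CPM in C at 96hpf, and overlapped at 48hpf (3575 to 4501 CPM in MG, 1999 to 3615 CPM in C). At 120hpf *GFAP* itself had 0.730 CPM in MG and 2.50 CPM in C. Photoreceptor markers were also higher in MG at 60, 72, 96, and 192hpf, with 244481 to 246709 CPM in MG and 14487 to 14887 CPM in C at 96hpf. Their sum overlapped at 48hpf and was lower in MG at 120hpf (2427 to 2452 CPM in MG, 2809 to 2915 CPM in C).

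At 60hpf none of the 4 genes had a read in any MG column, which at this depth allows levels of up to 38.0 CPM (3 reads of the mean column). C had 8.97 to 9.81 CPM of *itga5*, 4.14 to 4.88 CPM of *itgb1a*, 0.517 to 0.906 CPM of *lamb2*, and 0.459 to 1.59 CPM of *lamb4*, all under that limit. A difference was not detectable at 60hpf, and this stage gives no comparison for these genes.

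The receptor chain *itga5* had the steadiest pattern, lower in MG at each of the other 5 stages. At 48hpf it stood highest in both fractions, with 45.9 and 42.9 CPM in MG replicates 1 and 2 and 63.4 and 69.4 CPM in C replicates 1 and 2. MG held 0.670 of the C level there (95% counting interval 0.529 to 0.858). This log2 of -0.58 was near the median of all genes without the replicate 3 columns (-0.39). Of 14169 genes, 38.1% were lower still, and the counting interval takes no account of that median. The replicate 3 columns at 48hpf had 0.385 CPM under the MG label and 42.3 CPM under the C label, further apart than the other columns. In sorted bulk samples such as these, fewer cells of a type and less RNA per cell cannot be told apart. At 72hpf MG had 0.401, 0.706, and 0.594 CPM, against 3.36, 3.32, and 3.19 CPM in C, a ratio of 0.172 (0.0479 to 0.513). The MG level lies under the floor of 0.767 CPM that 3 reads of the shallower fraction set at 72hpf. At 96hpf the values were 4.92, 3.71, and 5.90 CPM in MG and 13.7, 14.4, and 13.1 CPM in C, a ratio of 0.356 (0.178 to 0.649). At 120hpf *itga5* had 3.22, 3.47, and 3.74 CPM in MG and 13.8, 13.3, and 7.83 CPM in C, a ratio of 0.302 (0.172 to 0.520). The gap was widest at 192hpf, with 1.03, 0.946, and 0.979 CPM in MG and 14.8, 15.0, and 14.0 CPM in C, a ratio of 0.0635 (0.0169 to 0.169). From 72hpf on, the MG and C columns did not overlap at any stage. The columns of a fraction at those stages sample 1 library, so this is no spread between samples. The share of all genes without overlap is not given here.

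The beta chain *itgb1a*, which with integrin alpha 5 can form 1 receptor, was lower in MG at 96, 120, and 192hpf, from few reads. At 48hpf MG replicates 1 and 2 had 17.5 and 13.6 CPM and C replicates 1 and 2 had 15.9 and 15.2 CPM, a ratio of 1.02 (0.634 to 1.73). Replicate 3 had 0 CPM under the MG label and 14.9 CPM under the C label, so that only this column set MG apart at 48hpf. At 72hpf MG had 0.116, 0, and 0.112 CPM, against 0.764, 1.02, and 1.29 CPM in C, and the interval of the ratio reached past 1 (0.112, 0.00227 to 1.13). At 96hpf *itgb1a* had 0.820, 1.24, and 2.42 CPM in MG and 8.51, 8.33, and 7.98 CPM in C, a ratio of 0.198 (0.0523 to 0.534). At 120hpf it had 0.145, 0, and 0.149 CPM in MG and 7.2, 6.66, and 10.6 CPM in C. MG held about 1 read per column there against 25 in C, a ratio of 0.0181 (0.000441 to 0.111), the lowest for *itgb1a*. At 192hpf the values were 0.938, 0.946, and 3.78 CPM in MG and 6.37, 6.4, and 6.90 CPM in C (0.281, 0.113 to 0.614). The MG and C columns, from 1 library per fraction, did not overlap at 72hpf or later, although the counting interval at 72hpf included 1.

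**Figure D1:**
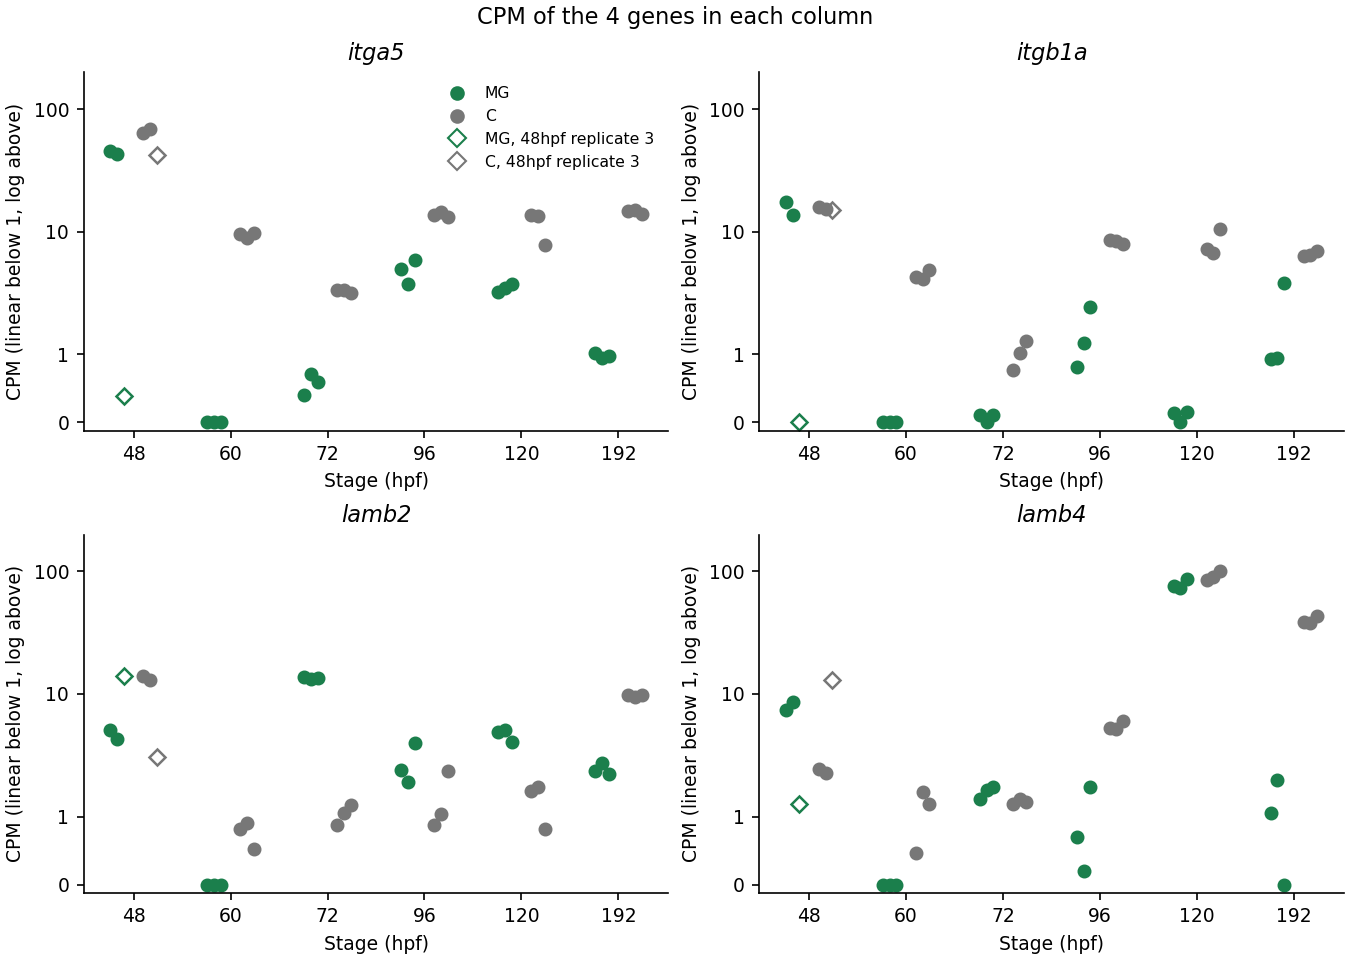
CPM of the 4 genes (vertical axis, linear below 1 CPM and logarithmic above) by stage (horizontal axis), 1 point per column, MG in green left of C in grey, open diamonds for the replicate 3 columns at 48hpf. *itga5* in MG stood below C at 72, 96, 120, and 192hpf, *lamb2* stood higher in MG at 72hpf (13.3 to 13.9 CPM) than in C (0.874 to 1.25 CPM), and the 60hpf MG points at 0 come from columns of at most 90846 reads.

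Of the laminin chains, *lamb2* was higher in MG at 72 and 120hpf and lower in MG at 192hpf. LAMB2 is the beta chain of laminins of the mammalian inner limiting membrane and neuromuscular junction. At 48hpf MG replicates 1 and 2 had 5.09 and 4.31 CPM and C replicates 1 and 2 had 14.0 and 13.0 CPM, a ratio of 0.344 (0.191 to 0.643). Replicate 3 had 14.1 CPM under the MG label and 3.05 CPM under the C label, so the order at 48hpf depends on these columns. At 72hpf *lamb2* had 13.9, 13.3, and 13.5 CPM in MG and 0.874, 1.07, and 1.25 CPM in C, and MG held 13.3 times the C level (5.05 to 49.5). At 96hpf MG had 2.38, 1.90, and 4.0 CPM and C had 0.871, 1.06, and 2.34 CPM. These columns overlapped, with an interval of the ratio that included 1 (1.92, 0.632 to 5.43). At 120hpf there were 4.93, 5.09, and 4.07 CPM in MG and 1.63, 1.74, and 0.817 CPM in C, a ratio of 3.62 (1.28 to 14.1). At 192hpf the order was the other way, with 2.37, 2.73, and 2.21 CPM in MG and 9.79, 9.48, and 9.77 CPM in C (0.260, 0.123 to 0.503). The MG and C columns, from 1 library per fraction, did not overlap at 72, 120, or 192hpf.

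The other beta chain, *lamb4*, had a single high stage in MG, 120hpf, and a wide gap between the fractions at 192hpf. At 48hpf MG replicates 1 and 2 had 7.39 and 8.54 CPM and C replicates 1 and 2 had 2.43 and 2.29 CPM, a ratio of 3.52 (1.15 to 17.5) from 3 reads per C column. Replicate 3 had 1.26 CPM under the MG label and 13.1 CPM under the C label, the opposite order. At 72hpf the interval of the ratio included 1, with 1.38, 1.66, and 1.75 CPM in MG and 1.27, 1.38, and 1.33 CPM in C (1.25, 0.425 to 4.43). At 96hpf the values were 0.697, 0.206, and 1.75 CPM in MG and 5.25, 5.16, and 6.0 CPM in C, from about 2 reads per MG column (0.151, 0.0177 to 0.583). At 120hpf *lamb4* had 75.6, 73.9, and 86.6 CPM in MG and 85.2, 89.7, and 100.02 CPM in C, its highest level in each fraction. The columns overlapped at 120hpf, and the ratio was 0.861 (0.744 to 0.997). This log2 of -0.22 was above the median of all genes at 120hpf (-0.47), and 55.0% of 14986 genes were lower still. At 192hpf *lamb4* had 1.07, 1.99, and 0 CPM in MG and 38.5, 37.7, and 43.2 CPM in C, a ratio of 0.0231 (0.00625 to 0.0601). The MG and C columns, from 1 library per fraction, did not overlap at 96 or 192hpf.

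**Figure D2:**
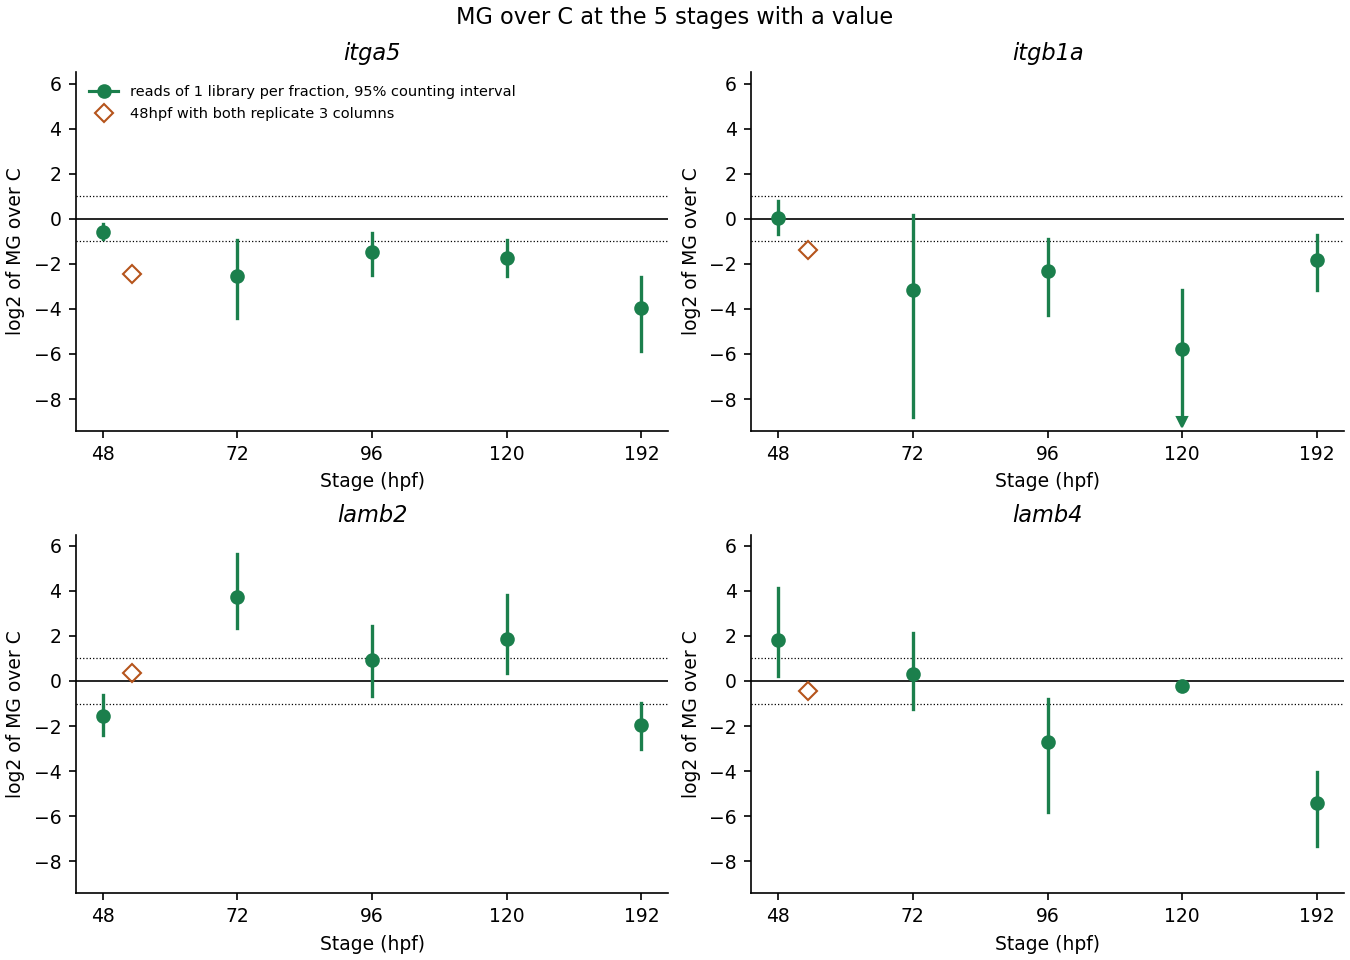
log2 of MG over C (vertical axis) by stage (horizontal axis) for the 4 genes, with points for 1 library per fraction (replicates 1 and 2 at 48hpf), lines for the 95% counting interval, an arrow where the line runs off the axis, open diamonds for 48hpf with both replicate 3 columns, and dotted lines at 2-fold. The intervals of *itga5* lie below 0 at all 5 stages, those of *lamb2* lie above 0 at 72 and 120hpf, and the 48hpf diamonds of *lamb2* and *lamb4* lie across 0 from their points. The median log2 of all genes at 48hpf was itself -0.39 without the replicate 3 columns.

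Set against all genes, a 2-fold difference was common in these libraries. At 48hpf *itga5* and *itgb1a* were at least 2-fold lower in MG with both replicate 3 columns in, as were 28.9% of all 15612 genes compared (11.7% were higher). Without them *lamb4* was higher (2.83% of genes) and *lamb2* lower (18.3% of genes). At 72hpf *lamb2* was higher (29.1%) and *itga5* lower (28.9%). At 96hpf *itga5*, *itgb1a*, and *lamb4* were lower (34.7%, with 9.05% of genes higher), and *lamb2*, with a log2 of 0.96, stayed just under 2-fold higher. At 120hpf *itga5* and *itgb1a* were lower (40.1%) and *lamb2* was higher (25.4%). At 192hpf all 4 genes were lower, as were 27.8% of all 17747 genes compared (9.45% were higher). Among all genes ordered by log2 of MG over C, *lamb2* ranked 495 of 15202 from the highest at 72hpf, and *lamb4* ranked 17622 of 17747 at 192hpf.

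Whether MG and C differ over development was tested with the stage as the unit that repeats, by limma on the log2 differences of the joined libraries. Unless stated, both 48hpf replicate 3 columns are in. The MG one matched the MG columns of a later stage within read sampling, and the C one matched the other 48hpf MG columns. With them in, the stages are not separate units, and the p-values treat overlapping libraries as separate stages. *itga5* averaged a log2 of -2.34 ± 0.42 (SE over 5 stages, lower in MG at 5 of 5), with an adjusted p of 0.0184 by limma. *itgb1a* averaged -1.83 ± 0.45 (lower at 5 of 5), with an adjusted p of 0.0421 by limma. *lamb2* averaged 0.95 ± 0.92 (higher at 4 of 5) and *lamb4* -1.56 ± 1.02 (lower at 4 of 5), with adjusted p of 0.386 and 0.185 by limma. The limma p-values rest on limma's own SE, not on these. It was 0.48 for *itga5*, 0.49 for *itgb1a*, 0.69 for *lamb2*, and 0.74 for *lamb4*. Of all 15977 genes tested, 9.77% passed, and 7.18% passed as lower in MG. Both receptor calls were lost without the 48hpf replicate 3 columns, with adjusted p of 0.122 for *itga5* and 0.173 for *itgb1a* by limma, where 10 of 15728 genes passed (0.0636%). Without these columns *lamb2* averaged 0.57 ± 1.05 (higher at 3 of 5), with an adjusted p of 0.693 by limma. *lamb4* then averaged -1.13 ± 1.21 (lower at 3 of 5), with an adjusted p of 0.465 by limma. The exact two-sided sign-flip test over 5 stages cannot go below 0.0625, which it gave for *itga5* and *itgb1a*, beside 0.375 for *lamb2* and 0.1875 for *lamb4*. Without the 48hpf replicate 3 columns this sign-flip test gave 0.0625, its smallest possible value, for both receptors, 0.625 for *lamb2*, and 0.4375 for *lamb4*. For *itgb1a* this rests on the sign of a 48hpf difference near 0. The ratio from reads there was 1.02 (0.634 to 1.73), so that sign is not settled.

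The laminin chains and the receptors were also set side by side within a stage, as the difference of their log2 ratios of MG over C. *lamb2* stood above *itga5* on the log2 scale at each of the 5 stages with a value, by 2.79, 5.77, 2.46, 3.49, and 1.90 from 48hpf to 192hpf. Without the replicate 3 columns the 48hpf difference was -0.94. Against *itgb1a* the differences of *lamb2* were 1.75, 4.08, 3.43, 4.82, and -0.19 at these 5 stages, with -1.52 at 48hpf without the replicate 3 columns. *lamb4* stood above *itga5* at 48, 72, and 120hpf (2.02, 2.37, and 1.52) and below it at 96 and 192hpf (-0.65 and -1.39). Against *itgb1a* the differences of *lamb4* were 0.98, 0.68, 0.31, 2.85, and -3.49, with 1.76 at 48hpf without the replicate 3 columns. Where a receptor or a chain was under the floor in MG, these differences rest on the floor. This holds for *itga5* and *itgb1a* at 72hpf, *lamb4* at 96hpf, and *itgb1a* at 120hpf. It also holds for *itga5*, *itgb1a*, and *lamb4* in the 48hpf MG replicate 3 column. At 96hpf the floor set the order of *lamb4* and *itgb1a*, since the ratios from reads were 0.151 and 0.198, the other way.

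Within each fraction the genes were also ordered by stage, from replicates 1 and 2 at 48hpf, with an exact 95% counting interval of the ratio between neighbours. In MG, *itga5* was highest at 48hpf (44.4 CPM), followed by 96hpf (4.84 CPM) and 120hpf (3.47 CPM), whose ratio had an interval that included 1. Its level at 120hpf was 3.80 times (1.31 to 15.1) that at 192hpf (0.986 CPM), and the interval between 192 and 72hpf included 1. In C, *itga5* was highest at 48hpf (66.4 CPM) and lowest at 72hpf (3.29 CPM), and the neighbours in the order 192, 96, 120, and 60hpf all had intervals that included 1. *itgb1a* had the same top and bottom stages in C (15.6 and 1.02 CPM), with 48hpf at 1.84 times (1.05 to 3.10) the level of 96hpf and intervals that included 1 from 96hpf through 120 and 192 to 60hpf. In MG it was highest at 48hpf (15.6 CPM), and the lower levels rest on 1 to 8 reads. *lamb2* was highest in MG at 72hpf (13.5 CPM), 2.88 times (1.98 to 4.29) the level at 48hpf, and the neighbours below had intervals that included 1. In C *lamb2* was highest at 48 and 192hpf (13.5 and 9.68 CPM, with an interval that included 1) and stood at 0.747 to 1.42 CPM at the 4 stages between. *lamb4* peaked at 120hpf in both fractions, followed by 48hpf in MG (7.97 CPM) and by 192hpf in C (39.8 CPM), each lower than the peak beyond counting error.

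The change over the stages was also fitted on the columns with limma, as F-tests. Since the columns of a group mostly sample 1 library and some are closer than read sampling, these p-values compare libraries and are no evidence over separate samples. Across the MG stages all 4 genes had an adjusted p under 0.05 (the highest, 0.000120, for *itgb1a*), as did 96.0% of all genes. Across the C stages 3 of the 4 did (*itgb1a* 0.0670), as did 83.0% of all genes. Without the 48hpf replicate 3 columns all 4 passed across the C stages (*itgb1a* 7.89e-06 by limma), as did 86.7% of all genes. Across the MG stages all 4 then passed as well (the highest, 1.29e-10, for *lamb4*), as did 96.8% of all genes. For the difference of MG and C among stages, 85.3% of all genes passed, and *lamb2* and *lamb4* passed with and without 60hpf and the 48hpf replicate 3 columns. The results of *itga5* and *itgb1a* depended on these columns. Without 60hpf, where MG had no reads, the adjusted p by limma was 0.498 for *itga5* and 0.266 for *itgb1a*, and without the 48hpf replicate 3 columns 6.84e-17 for *itga5* and 1.30e-07 for *itgb1a*. Without both 48hpf and 60hpf it was 1.36e-06 for *itga5* and 0.000513 for *itgb1a*.

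The other chains of both families were taken from lists of symbols. Of 14 laminin identifiers, *lamb2* and *lamb4* included, 11 lay above the floor at 48hpf. Of these, 0 were at least 2-fold higher in MG and 4 lower (11.7% and 28.9% of all genes). Without the replicate 3 columns 1 was higher and 6 were lower (2.83% and 18.3% of all genes). At 72hpf 6 were higher and 2 lower in MG among 11 (29.1% and 28.9% of all genes), with a median log2 of 1.48 where the median of all genes was -0.0028. The higher ones were *lamb2*, *lamb2l*, *lamc1*, *LAMA1*, *LAMA5*, and *lama2*. *lamb2l*, the other gene named after the beta 2 chain, had 74.7 CPM in MG and 3.51 CPM in C at 72hpf. *lamc1*, the common gamma chain, then had 55.5 CPM in MG and 5.30 CPM in C. At 96hpf 2 of 11 laminins were higher in MG while 5 were lower (9.05% and 34.7% of all genes). At 120hpf 3 of 12 were higher while 5 were lower, near the shares of all genes (25.4% and 40.1%). At 192hpf none of 13 laminin identifiers was 2-fold higher and 8 were lower (9.45% and 27.8% of all genes), with a median of -1.43 and a median of all genes of -0.36. *lama4*, an alpha chain of vessel basement membranes, was lower in MG at all 5 stages, also without the 48hpf replicate 3 columns, with 1.47 CPM in MG and 44.0 CPM in C at 192hpf.

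Of 20 integrin alpha chain identifiers, 9 lay above the floor at 72hpf, with 3 higher and 2 lower in MG, shares near the 29.1% and 28.9% of all genes. At 120hpf 3 of 10 were higher and 5 lower, also near the shares of all genes (25.4% and 40.1%), and at 192hpf 0 of 13 were higher and 11 lower (9.45% and 27.8% of all genes). *ITGA6*, a laminin receptor chain, had 52.3 CPM in MG and 13.4 CPM in C at 120hpf, while *itgav*, the chain of vitronectin receptors, had 200 CPM in MG and 20.1 CPM in C. Of 11 beta chain identifiers, 5 lay above the floor at 72hpf. *ITGB4* (log2 of 4.21) and *ITGB8* (1.99) were higher and 0 were lower (29.1% and 28.9% of all genes). At 96hpf 0 of 7 beta chains were higher and 4 lower (9.05% and 34.7% of all genes), *itgb1a*, *ITGB1*, *ITGB3*, and *ITGB4*. At 120hpf 4 of 6 were higher and 2 lower (25.4% and 40.1% of all genes). At 192hpf 0 of 9 were higher and 7 lower (9.45% and 27.8% of all genes). Both other identifiers named *ITGB1* were among the 4 higher at 120hpf. One (ENSDARG00000053232) had 11.9 CPM in MG and 2.85 CPM in C at 120hpf. The other (ENSDARG00000022689) had 8.78 CPM in MG and 0.648 CPM in C, at the stage where *itgb1a* was near 0 in MG. At 192hpf both were lower in MG, with 0.964 and 0.271 CPM in MG and 51.1 and 11.5 CPM in C. *itgb5* had 425 CPM in MG and 63.5 CPM in C at 120hpf.

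**Figure D3:**
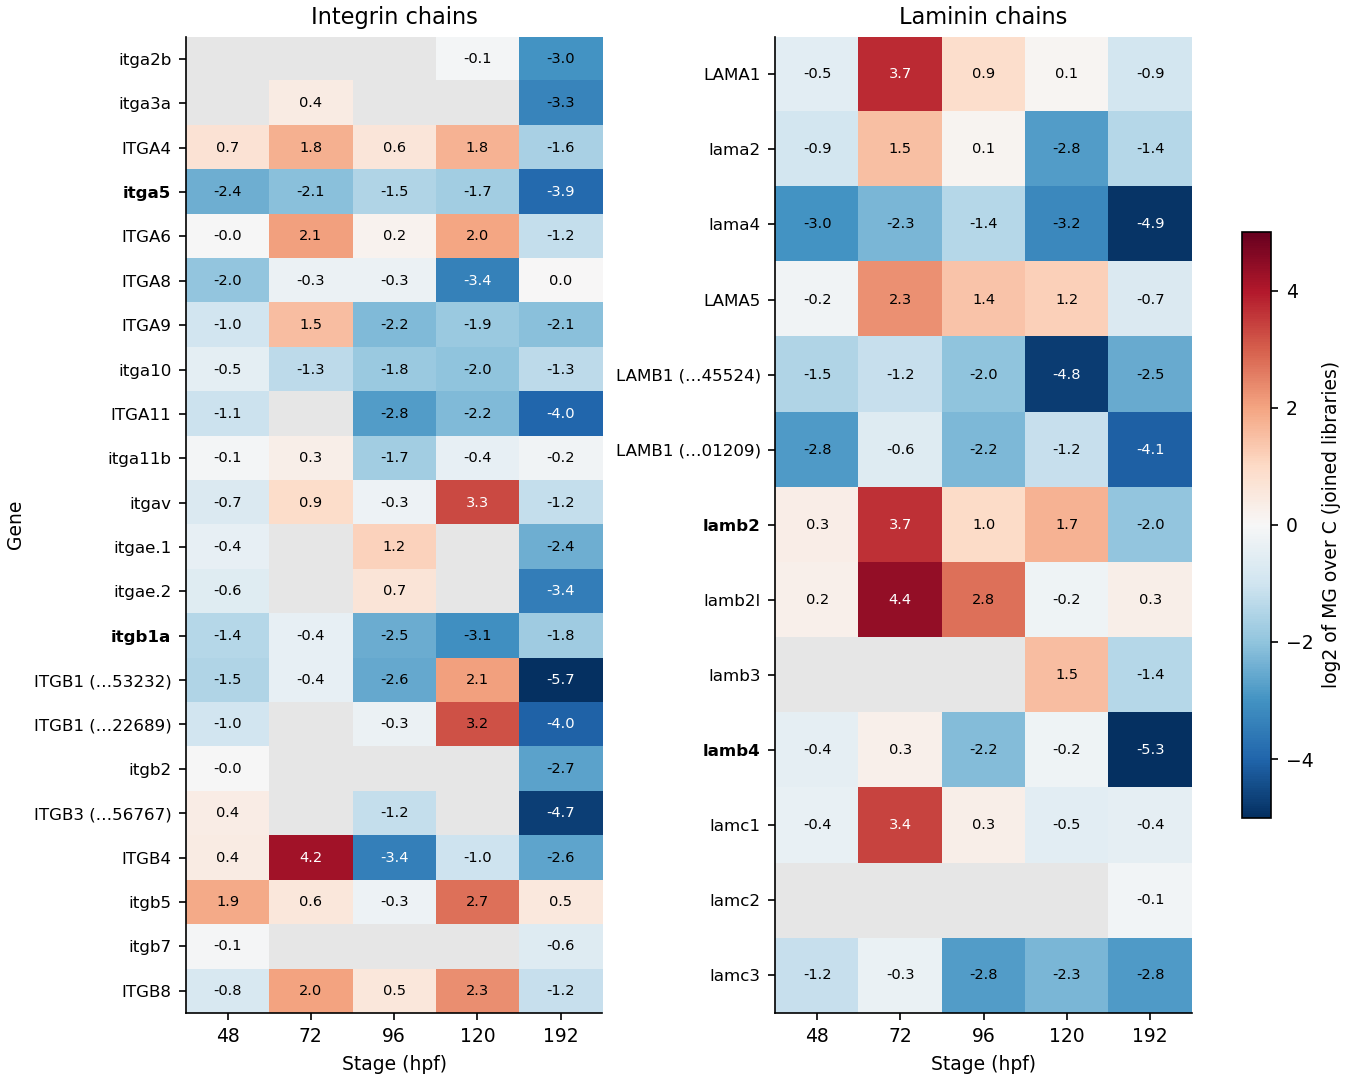
log2 of MG over C (colour and number) of integrin chains and laminin chains (rows, the 4 genes in bold, the last digits of the identifier where a symbol occurs more than once) at the 5 stages with a value (columns), both replicate 3 columns included at 48hpf, grey where both fractions were under the floor. *lamb2* (3.67) stands with *lamb2l* (4.41), *LAMA1*, and *lamc1* (3.39) at 72hpf, and the 192hpf column is mostly negative.

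Among 17 identifiers of other basement membrane genes, 4 were higher and 5 lower of 13 at 72hpf, near the shares of all genes (29.1% and 28.9%), and 1 was higher and 9 lower of 14 at 192hpf (9.45% and 27.8% of all genes). *HSPG2*, which encodes the proteoglycan perlecan, had 284 CPM in MG and 18.4 CPM in C at 72hpf and 545 CPM in MG and 73.2 CPM in C at 120hpf. The fibronectin gene *FN1*, whose product is the best known ligand of integrin alpha 5, was at least 2-fold lower in MG at the 5 stages with a value, for example 0.932 CPM in MG and 9.10 CPM in C at 72hpf, but had a log2 of -0.18 at 48hpf without the replicate 3 columns. Of 19 identifiers of integrin adaptors, 9 were higher and 1 lower of 14 at 72hpf (29.1% and 28.9% of all genes), among them *TLN2* (talin 2) with 87.4 CPM in MG and 17.2 CPM in C. At 192hpf 0 of 15 adaptors were higher, while 7 were lower (9.45% and 27.8% of all genes). A list of 9 identifiers held *bcam* and genes of the dystroglycan complex, a laminin receptor outside the integrins. Of these, 2 were higher and 0 lower of 7 at 72hpf, where 29.1% of all genes were higher and 28.9% lower. *dag1* then had 254 CPM in MG and 108 CPM in C. At 192hpf 0 of 7 were higher and 3 lower (9.45% and 27.8% of all genes), *utrn* (-1.52), *SGCD* (-1.38), and *bcam* (-1.91). *itga6b*, *ILK*, and *TLN1* are listed at 0 in all 36 columns, as are 33 of 204 list identifiers, *PCNA* among them, so a 0 there says nothing on expression.

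Markers of other cells also differed between the fractions, not always in the direction of the 4 genes. The counts below stand beside these shares of all genes 2-fold higher and lower in MG. They were 11.7% and 28.9% at 48hpf (2.83% and 18.3% without the replicate 3 columns) and 29.1% and 28.9% at 72hpf. Later they were 9.05% and 34.7% at 96hpf, 25.4% and 40.1% at 120hpf, and 9.45% and 27.8% at 192hpf. Of 11 identifiers of fibroblast, scleral, and corneal markers, 9 above the floor at 48hpf were all at least 2-fold lower in MG with the replicate 3 columns, and 0 of 9 were lower without them. Their sum was 34.5 CPM in 48hpf MG replicate 3. At 72hpf 7 of 8 were lower (34.4 to 37.5 CPM in MG, 357 to 380 CPM in C), at 96hpf 8 of 9 (200 to 212 CPM in MG, 4596 to 4677 CPM in C), and at 120hpf 7 of 9 (127 to 135 CPM in MG, 675 to 706 CPM in C). At 192hpf 8 of 9 were lower, with sums of 1143 to 1159 CPM in MG and 42379 to 43179 CPM in C. One identifier each of *COL1A1* and *COL2A1* had no read in any column. Of 9 proliferation marker identifiers, 3 (*PCNA*, *mki67*, and *TOP2A*) had no read in any column. Among the others, 6 of 6 above the floor were lower in MG at 72, 120, and 192hpf and 5 of 6 at 96hpf, with 22.4 CPM in MG and 1415 CPM in C at 120hpf. Of 7 endothelial marker identifiers, the sum was lower in MG at 96hpf (38.7 to 39.5 CPM in MG, 143 to 148 CPM in C), higher in MG at 120hpf (139 to 143 CPM in MG, 74.3 to 76.1 CPM in C), and lower in MG at 192hpf (35.4 to 44.0 CPM in MG, 226 to 239 CPM in C). Above the floor, 1 of 4 was higher and 1 lower at 72hpf, 2 of 5 were higher (*KDR* and *cdh5*) and 3 lower at 120hpf, and 1 of 7 was higher and 6 lower at 192hpf. At 96hpf *KDR* (log2 of 3.02) and *tie1* (2.12) were higher in MG, against the sum. *cdh5* (-3.10) and *FLI1* (-3.75) were lower, and the other endothelial markers stayed under 2-fold. At 192hpf 8 of 8 blood and immune markers (3.0 CPM in MG, 322 CPM in C) and 6 of 6 pigment markers (91.1 CPM in MG, 2918 CPM in C) were lower too, and at 120hpf 4 of 6 pigment markers were higher (197 CPM in MG, 25.6 CPM in C). Muscle markers were lower in MG for 6 of 6 at 96hpf. At 72hpf *myhz2*, the only muscle marker above the floor, was higher in MG (6.14 CPM, under the floor in C). Lens markers were higher for 7 of 12 and lower for 4 at 192hpf. Inner neuron markers were higher for 4 and lower for 1 of 11 at 120hpf. The inner neuron sum was lower in MG at 60, 72, and 96hpf and higher at 48, 120, and 192hpf. It was 4129 to 4152 CPM in MG and 10858 to 10994 CPM in C at 72hpf. At 96hpf it was 3193 to 3234 CPM in MG and 9572 to 9588 CPM in C. At 120hpf it was 10422 to 10614 CPM in MG and 3766 to 3814 CPM in C. The part of these cells in the lower levels of *itga5*, *itgb1a*, and *lamb4* in MG was not tested.

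**Figure D4:**
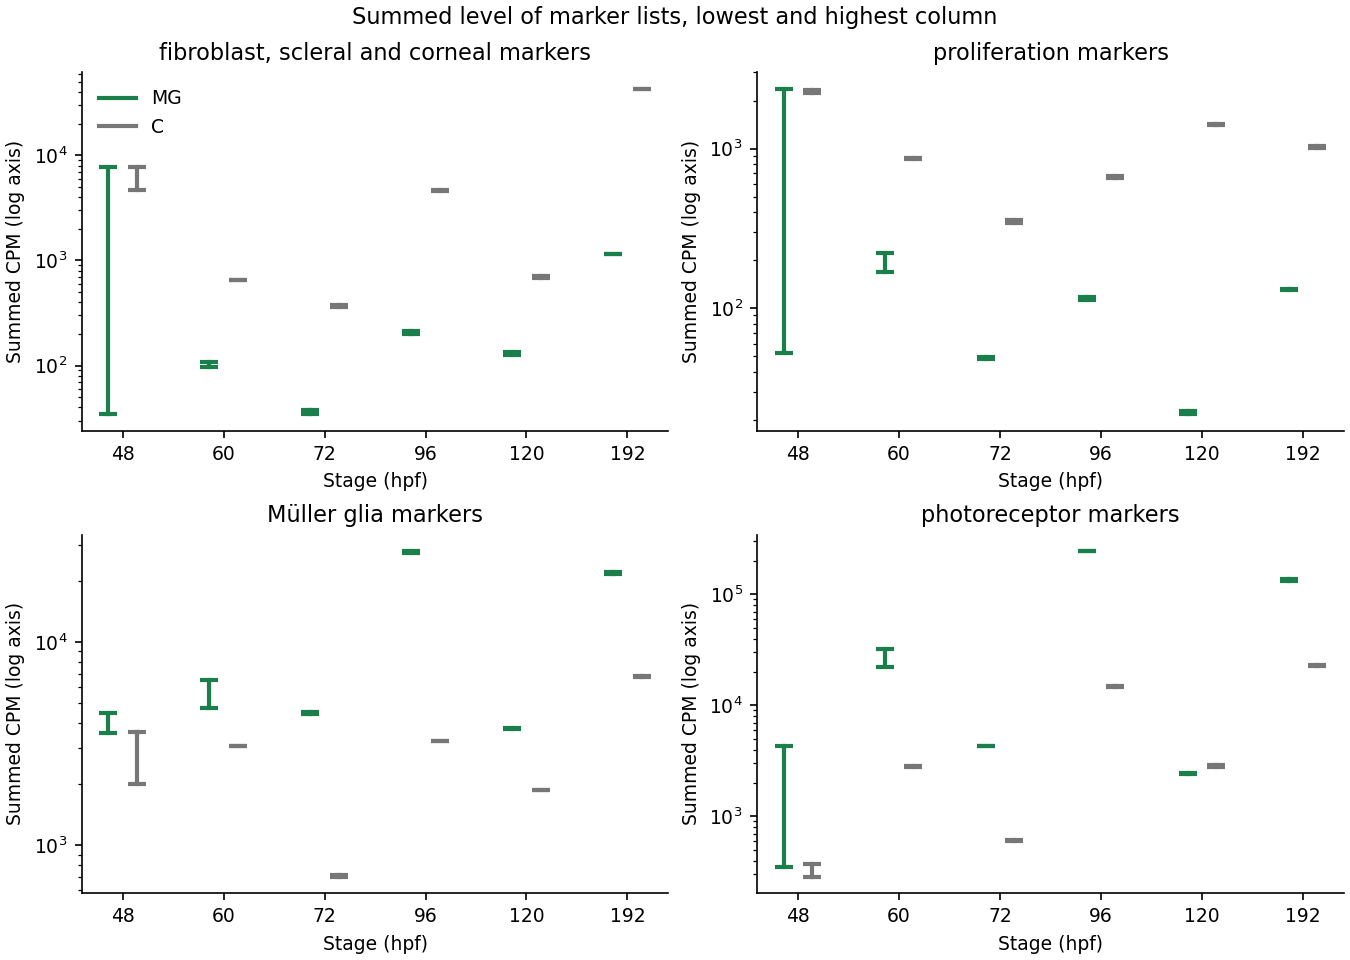
Summed CPM (vertical axis, logarithmic) of 4 marker lists by stage (horizontal axis), MG in green left of C in grey, each bar from the lowest to the highest column. The fibroblast, scleral, and corneal sum at 192hpf is 1143 to 1159 CPM in MG and 42379 to 43179 CPM in C, and the long MG bars at 48hpf end at the replicate 3 column.

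Last, the genes most like each of the 4 were looked up over the 11 groups other than 60hpf MG, among 17522 genes with a symbol, by Pearson's r of log2 CPM. The groups share libraries and depth, so r is a description. *itga5* was most like *lama4* (r = 0.97), *ALX4* (0.96), and *ESCO2* (0.95), and *itgb1a* most like *cdc42ep5*, *trim59*, and *snai2* (each 0.98). For *lamb2* these were *CYFIP1* (0.96), si:dkey-111i23.1 (0.94), and *HTR6* (0.93), and for *lamb4* 3 genes with clone names (0.96 to 0.98). Among the 4, *itga5* and *itgb1a* had an r of 0.88, and the other 5 pairs ranged from -0.08 to 0.38. Part of the counts of these genes are not whole reads, in 21 of 33 columns with reads for *itga5*, 2 of 30 for *itgb1a*, 29 of 33 for *lamb2*, and 29 of 32 for *lamb4*, as fractional counting of reads shared with another feature or place gives.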

How the data were processed

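RNA-seq of sorted GFP-positive and GFP-negative cells of zebrafish eyes was used. RNA was amplified before the library was made, which can widen errors at few reads. The authors aligned the reads with Hisat2, to Zv9 by the study's methods, while the submitters' processing notes name GRCz10, and their methods list featureCounts. They deposited log2 CPM of 31540 genes in 36 columns. A prior of 0.25 read and no TMM factor is contained in them, and reads were recovered in steps of 0.01. Genome coordinates are not given, because the build of the counts was not at hand. Symbols were found for 26140 of the identifiers.

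Columns of a group were joined to 1 library where a chain of pairs linked them, each with a median chi-square ratio of at most 1.1 over genes with 20 reads in the pair. Replicates 2 and 3 of 60hpf MG (1.34) were joined through replicate 1. Levels under the floor (3 reads of the shallower fraction) were set to it. Genes were called at 2-fold, with exact 95% intervals from the reads that cover counting error only, since no molecular identifiers are described. The paper counts 3 experimental replicates per time point. It does not say that the columns come from separate pools of fish, so p-values of the column fit measure the spread between columns. The fits used limma 3.58.1 in R 4.3.3 (group means with an eBayes trend, genes with 1 CPM in 3 columns, and an intercept over stages for genes with 3 stages), with Benjamini-Hochberg adjustment over all genes and a threshold of 0.05. A stage with both fractions under the floor was left out. Other steps used Python 3.11.15, numpy 2.4.6, pandas 2.3.3, scipy 1.17.1, and matplotlib 3.10.9, and the steps were tested on simulated data. Named are the 4 genes, members of 6 pathway and 10 marker lists, and the 3 genes most correlated with each of the 4. The 4 genes and the lists were chosen with earlier results of these data known. Alternatives were a floor of 10 reads, a pseudocount of 1 CPM, TMM factors, quantile normalization, other filters (none, 5 CPM), no eBayes trend, fits on the columns of a stage, a replicate block, and leaving out replicates, 60hpf, or the 48hpf replicate 3 columns. Some were added after seeing the data: the pseudocount and left-out replicates over the stages, and, for the F-tests, TMM factors or the replicate block where not planned, no 48hpf replicate 3 columns, and neither 48hpf nor 60hpf.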

Additional observations from a re-analysis of the deposited data

Results flagged for a closer look

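The limma F-test of MG minus C among the 6 stages had an adjusted p under 0.05 for 3 of the 4 genes, 0.000953 for *itga5*, 7.4e-10 for *lamb2*, and 6.69e-05 for *lamb4*, where 85.3% of all genes passed. It was 0.0612 for *itgb1a*. This test compares libraries, and it includes 60hpf, where no MG column had a read of these genes. Without 60hpf the adjusted p by limma was 0.498 for *itga5*, 0.266 for *itgb1a*, 3.04e-06 for *lamb2*, and 0.000325 for *lamb4*. The result for *itga5* thus did not hold on those 5 stages with the 48hpf replicate 3 columns in. Without 48hpf and 60hpf the adjusted p by limma was 1.36e-06 for *itga5*, 0.000513 for *itgb1a*, 2.47e-09 for *lamb2*, and 6.44e-05 for *lamb4*. Without the 48hpf replicate 3 columns, which do not match their labels, it was 6.84e-17 for *itga5*, 1.30e-07 for *itgb1a*, 9.69e-14 for *lamb2*, and 4.19e-06 for *lamb4*.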

How the results depend on the processing

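Depth limits the low genes, with 1 to 5 reads behind several values of *itgb1a*, *lamb4*, and *itga5* in MG and of *lamb2* in C. Of 121 alternative log2 ratios of the 4 genes at single stages, 107 kept their direction and their side of 2-fold. Many of these leave out a replicate. Outside 48hpf the columns kept sample the same library, so agreement there was nearly given in advance. At 48hpf, leaving out replicate 3 is the same setting as leaving out both replicate 3 columns. Without both 48hpf replicate 3 columns the 48hpf log2 was -0.58 for *itga5*, -0.0026 for *itgb1a*, -1.52 for *lamb2* (0.34 with them), and 1.76 for *lamb4* (-0.43 with them). A floor of 10 reads gave -0.36 for *itga5* at 72hpf, -0.54 for *itgb1a* at 48hpf, 0.54 for *lamb2* at 120hpf, and -0.42 for *lamb4* at 96hpf, and it left no value for *itgb1a* and *lamb4* at 72hpf and *lamb2* at 96hpf. TMM factors gave -1.09 for *itgb1a* at 72hpf and 1.25 for *lamb2* at 96hpf. They moved the median log2 of all genes from -0.36 to -0.03 at 48hpf, from -0.0028 to -0.22 at 72hpf, from -0.64 to -0.22 at 96hpf, from -0.47 to -0.37 at 120hpf, and from -0.36 to -0.02 at 192hpf. Genes 2-fold higher and lower were 3092 and 2922 with TMM factors and 1826 and 4515 without at 48hpf, 2083 and 3178 with and 1448 and 5542 without at 96hpf, and 2487 and 3459 with and 1677 and 4927 without at 192hpf. Leaving out a replicate at 48hpf gave -2.53 to -0.58 for *itga5*, -1.51 to -0.0026 for *itgb1a*, -1.52 to 0.38 for *lamb2*, and -0.53 to 1.76 for *lamb4*. Genes past 2-fold at 48hpf were 6341, and 3883 with a floor of 10 reads and 2991 without the replicate 3 columns. At 60hpf they were 2091, and 600 with a floor of 10 reads and 11628 with a pseudocount of 1 CPM.

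Over the stages, 24 of 32 alternative means kept their side of the threshold. The other 8 were all of *itga5* or *itgb1a*, the only genes called. *lamb2* and *lamb4* passed in no setting, so theirs had no call to lose. Leaving out 60hpf gave the same means by construction, since these genes have no value there. The pooled count therefore does not show that the receptor calls are stable. By limma, the mean log2 of *itga5* no longer passed with a pseudocount of 1 CPM (-2.24) or without the 48hpf replicate 3 columns (-1.96), and that of *itgb1a* with a floor of 10 reads (-1.10), the pseudocount (-1.95), TMM factors (-1.83), or without those columns (-1.55). Leaving out a replicate gave -2.32 to -2.07 and -1.77 to -1.73, and both calls were lost without replicate 3. Genes called were 1561, and 1064 with the floor of 10 reads, 136 with the pseudocount (which also brings in 60hpf and tests all 31540 genes), 1030 with TMM factors, 10 without the 48hpf replicate 3 columns, and 8 to 1598 without a replicate. The cause was not tested.

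The F-test of MG minus C among stages gave *itga5* an adjusted p by limma of 0.498 without 60hpf and 1.36e-06 without 48hpf and 60hpf. It gave *itgb1a* 0.0247 with TMM factors, 1.30e-07 without the 48hpf replicate 3 columns, and 0.000513 without 48hpf and 60hpf. In the column fit the 48hpf difference of *lamb2* was -0.28, and 0.20 with TMM factors, 0.43 after quantile normalization, and -1.51 to 0.37 without a replicate, and that of *lamb4* was 0.05, and -0.87 to 1.73 without a replicate. Of 239 alternative column results, 194 kept direction and side. These too include fits without a replicate, where agreement in direction was nearly given for groups that sample 1 library.

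Deviations of same-numbered MG and C columns had correlations of -0.19 to 0.03. Since the columns of a group mostly sample 1 library, these correlations cannot show whether the replicate numbers pair the columns. With a replicate block the F-test gave adjusted p of 0.001 for *itga5*, 0.0784 for *itgb1a*, 4.48e-09 for *lamb2*, and 0.000152 for *lamb4* by limma. Among the pathway lists, TMM factors gave 3 integrin alpha chains higher at 96hpf and 4 laminins higher at 96hpf, where the counts were 1 and 2 without them.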
